A study of Mus musculus with 5 samples.

Results

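The 38 genes described here carry fatty acids through uptake, activation, mitochondrial and peroxisomal oxidation and ketone body formation. They were chosen by symbol, as genes of the pathway, with earlier results of these data known, so their counts are a description. Of these genes, 38 of the 38 were found among the 23022 genes of the authors' comparison of liver RNA. The 4N group held 3 livers of E18.5 mouse embryos, staged in days of gestation shortly before birth, whose Hhex gene, needed for liver formation, had been knocked out and whose blastocysts had received tetraploid embryonic stem cells carrying the red marker td-Tomato. The WT group held 2 livers of normal embryos of the same stage. The labels give no strain, sex, litter or stem cell clone, and no control with diploid stem cells in an Hhex knockout host was analysed here, so ploidy, cell origin, host genotype and embryo manipulation cannot be told apart. Nothing in the labels assigns the livers to litters or parents, and p-values then measure only the spread between these 5 samples.

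Fatty acids are bound and activated to acyl-CoA in the cytosol, carried into mitochondria as carnitine esters, and shortened there by a repeating spiral of reactions that yields acetyl-CoA and reduced electron carriers. Very long and branched chains are shortened first in peroxisomes, which pass the products on to mitochondria. In the liver, acetyl-CoA that is not burned is turned into ketone bodies, and the whole programme is induced around birth and in fasting through the nuclear receptor PPAR alpha. It serves the change from the glucose supply of the fetus to the fat of milk.

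The RefSeq promoter windows of 32 of the 38 genes were at hand (build GRCm38.p6, each around an annotated start). From them 3 stretches are shown because they lie in front of genes that fell and hold AGGTCA, a half-site of nuclear receptors. Pairs of this half-site were not searched for, and binding of PPAR alpha was not tested. Capitals mark the match.
Fabp1: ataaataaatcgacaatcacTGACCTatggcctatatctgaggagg
Cpt1a: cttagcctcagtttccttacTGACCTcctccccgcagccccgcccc
Slc27a2: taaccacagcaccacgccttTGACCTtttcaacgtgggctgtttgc
The Fabp1 stretch (chr6:71199792-71199837, plus strand) holds the half-site on the reverse strand, 67 to 62 bases before the RefSeq start. The stretches of Cpt1a (chr19:3323187-3323232, plus strand) and Slc27a2 (chr2:126552784-126552829, plus strand) hold it on the reverse strand too, 94 to 89 and 220 to 215 bases before the start. The Fabp1 window holds a further match on the reverse strand, 9 to 4 bases before the start, which is not shown.

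Both strands of every window were searched. The half-site AGGTCA was found in 9 of the 32 genes (28.1%) against 18.1% of all 27025 genes with a window. Besides the 3 shown, these were Acadvl, Acot3, Acot4 and Creb3l3, which fell too, and Acadm and Echs1, which did not pass the test. Whether the half-site goes with a fall was not tested. The GC box GGGCGG was found in 21 of 32 (65.6%) against 38.2%, and the TATA box TATAAA in 2, Acot4 and Fabp1, against 15.7%. The extended half-site TCAAGGTCA, which holds AGGTCA, and the HNF4A-type repeat CAAAGTCCA were found in 0 of the 32 genes and in 0.466% and 0.555% of all genes. All genes here include noncoding ones, and a match is a description of letters only.

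Most of the 38 genes were lower in 4N liver. By the authors' Wald test at an adjusted p under 0.05, 23 fell, 1 rose and 14 did not pass, where 7.41% of all genes fell and 7.94% rose. Among the 10598 genes whose mean reached 500 normalized counts, as each of the 38 does, 10.1% fell and 11.1% rose. Among the 2690 genes whose mean reached 5000, as most of the 38 do, 13.9% fell and 17% rose. The median log2 fold change of the 38 genes was -0.82, against 0.00 over all genes and 0.01 over those above 500 counts, all taken from the authors' deposited table. Values below 0 stood at 35 genes and values above 0 at 3. At least 2-fold falls past the threshold numbered 14 and rises 1, where 5.34% of all genes fell and 5.19% rose by that rule. A test against a 1.5-fold change gave 10 falls and 0 rises (1 rise at an unadjusted p under 0.05), where 2.55% of all genes fell and 2.26% rose. At an adjusted p under 0.01, 20 fell and 1 rose, where the shares of all genes were 5.06% and 5.26%. Among genes whose mean reached 50 the counts were 23 and 1 (10.7% and 11.4% of all genes), and with the genes above 10000 counts as centre 24 and 1 (8.34% and 7.22%). A t reference in place of the normal one ended each of these calls (20 falls and 1 rise at an unadjusted p under 0.05), with 0% of all genes called. A fold change is always 4N against WT, and its error is the standard error (SE) of the deposited fit. Single libraries were not analysed here, so each gene is shown by 2 group means worked out from its mean over the 5 libraries and its fold change, and whether the livers of the groups overlap cannot be seen. Summed over the 38 genes, these implied means were 921330 normalized counts in WT and 497456 in 4N, or 54.0% of WT, while the sum over all genes was 98.4% of WT. Their means span 519 (Acot2) to 74157 (Acsl1) normalized counts, and the SE of a log2 fold change ran from 0.18 to 0.40.

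**Figure D1:**
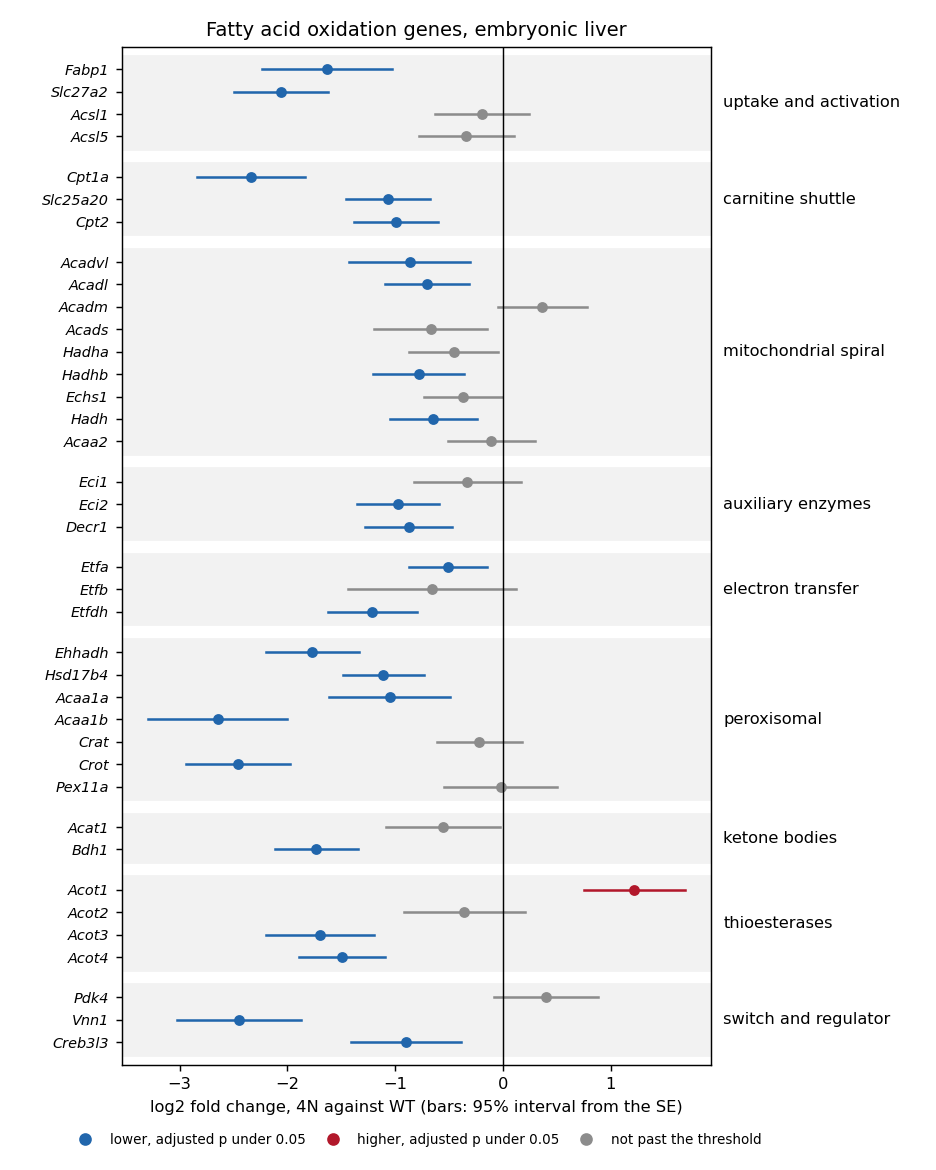
Log2 fold change (4N against WT, x axis) of each of the 38 genes, grouped by step, with the 95% interval from the SE as bars and colour for the call at an adjusted p under 0.05. The 23 genes that fell include 3 of 3 in the carnitine shuttle and 5 of 7 in the peroxisomal group, and Acot1 alone lies to the right past the threshold.

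Facts of the whole comparison stand beside these values. Hhex, the gene knocked out in the host embryos and not labelled as altered in the donor cells, had a mean of 5894 normalized counts and did not pass the test (0.55 with an SE of 0.33 per the authors' deposited table). Albumin, at 7.94% of the summed means, had a log2 fold change at 0.01 (SE 0.22) per the authors' deposited table. Of 15 hepatocyte markers 5 fell and 0 rose (median -0.30), and their summed implied means were 10506000 normalized counts in WT and 9210970 in 4N. Of 19 measured erythroid markers 18 rose and 0 fell (median 1.57), with sums of 1111830 in WT and 3634060 in 4N. Macrophage markers rose in 4 of 12 and fell in 1, endothelial markers passed the test in 0 of 10 (1 at an unadjusted p under 0.05), and 9 of 12 heart and skeletal muscle markers were listed, with means of at most 63 normalized counts (Tnnt2) and 1 that rose. Of the fat cell markers 2 of 8 were listed, and the defining ones Adipoq, Plin1 and Ucp1 were not among the genes of the table. In bulk liver, fewer hepatocytes and less RNA per hepatocyte cannot be told apart, and the part of the erythroid shift in the falls below was not tested. Of 29 secreted plasma protein genes of hepatocytes 15 fell and 0 rose as deposited, with values from -4.07 to 0.30 and a median of -0.55. They are thus not an unchanged reference. Recentring the fold changes on the median of these 29 genes moved all values up by 0.55. The 38 genes then had a median of -0.27, and 13 fell and 3 rose, where 3.80% of all genes fell and 28.1% rose (11.9% of all calls lower, against 48.3% as deposited). Recentring on 26 nuclear-encoded respiratory chain subunits moved all values up by 0.27, and 17 genes then fell and 3 rose, with a median of -0.56, where 5.08% of all genes fell and 14.4% rose.

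Of the 4 uptake and activation genes among the 38, Fabp1 and Slc27a2 fell, and the synthetases Acsl1 and Acsl5 did not pass the test. Fabp1, the liver fatty acid-binding protein, had implied means of 59790 normalized counts in WT and 19330 in 4N. Its fold change on the log2 scale was -1.63 (SE 0.31, adjusted p = 3.6e-06) per the authors' deposited table. Per kilobase of transcript Fabp1 had the highest mean level of the 38 genes, 64221 normalized counts per kilobase, followed by the thiolase Acaa2 at 34651. Slc27a2, a transporter that also activates very long chains, had implied means of 91600 in WT and 21933 in 4N. It fell by 2.06 on the log2 scale (SE 0.22, adjusted p = 3.4e-18) per the authors' deposited table, to 23.9% of WT. This was the largest drop in counts of the 4 genes of the step. Acsl1, the main long-chain acyl-CoA synthetase of liver, had implied means of 80244 and 70100 normalized counts in WT and 4N. The authors' deposited table gave it -0.19 (SE 0.22, adjusted p = 0.66), with a 95% interval of -0.63 to 0.24. Acsl5, a second synthetase, stood at -0.34 (SE 0.23, adjusted p = 0.36) per the authors' deposited table, with implied means of 19079 and 15088. Recentring on the secreted proteins turned the values of both synthetases positive without a call (0.36 and 0.22), while Fabp1 and Slc27a2 were among the 13 genes still lower.

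The carnitine shuttle fell in 3 of 3 genes, the only one of the 9 groups in which each gene was called. Cpt1a, the malonyl-CoA-sensitive enzyme that makes long-chain acylcarnitine at the outer membrane, had implied means of 46509 normalized counts in WT and 9220 in 4N, or 19.8% of WT. Slc25a20 encodes the translocase that carries acylcarnitine across the inner membrane. Its implied means were 4755 in WT and 2270 in 4N, and its fold change on the log2 scale was -1.07 (SE 0.20, adjusted p = 2.5e-06) per the authors' deposited table. Cpt2, which returns the acyl group to CoA inside the matrix, went from 7435 to 3740 by its implied means, with a log2 fold change at -0.99 (SE 0.20, adjusted p = 1.6e-05) per the authors' deposited table. The interval of Cpt1a (-2.84 to -1.83) lay below those of Slc25a20 (-1.46 to -0.68) and Cpt2 (-1.38 to -0.60), although the difference itself was not tested. Summed over the 3 genes, the implied means were 58700 normalized counts in WT and 15231 in 4N, 25.9% of WT. After recentring on the secreted proteins the median of the shuttle was -0.51, and Cpt2 alone lost its call (adjusted p = 0.078).

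**Figure D2:**
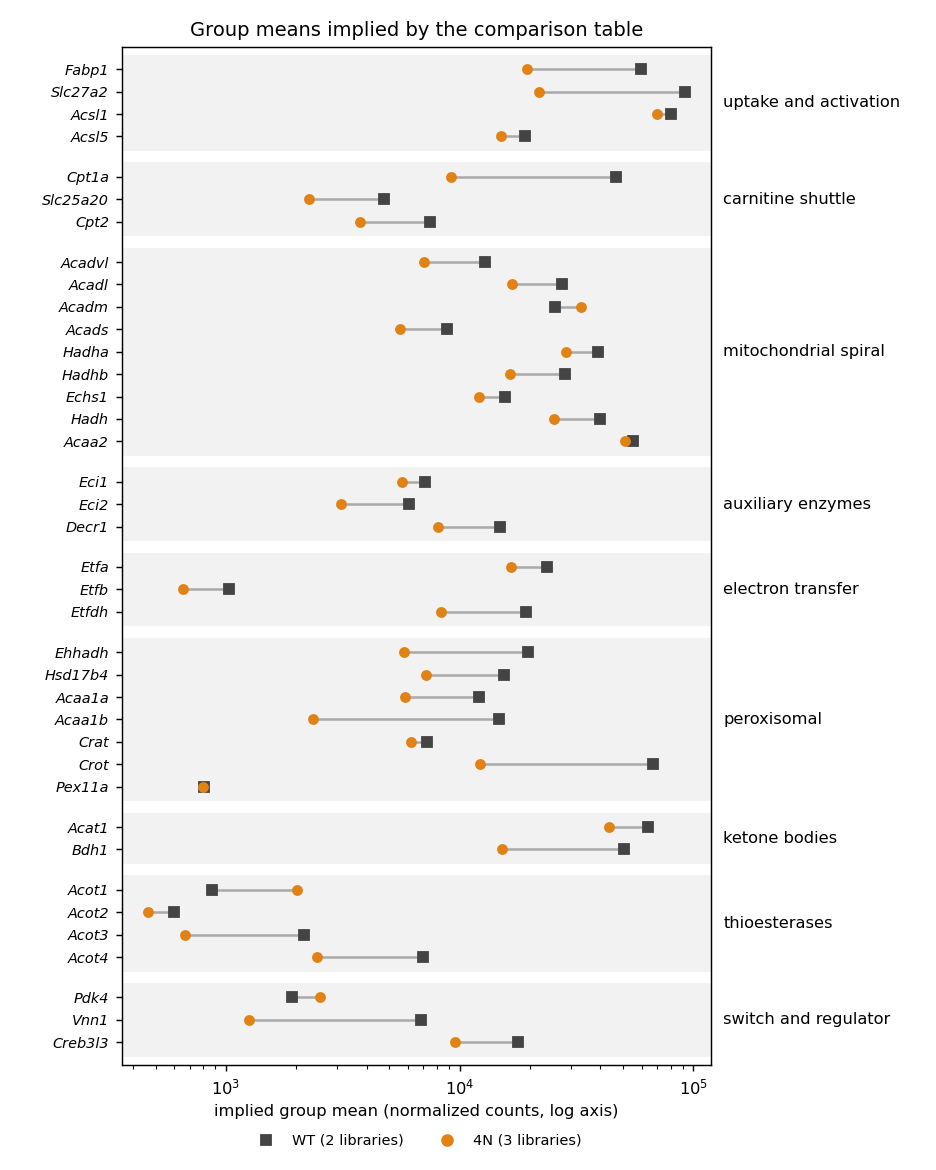
Group means implied by the mean over all libraries and the fold change (normalized counts, log axis), with squares for WT (2 libraries) and circles for 4N (3 libraries). The gap is widest for Acaa1b, Crot, Vnn1 and Cpt1a, each at 20% of WT or less, and the order is turned for Acot1, Acadm and Pdk4.

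In the mitochondrial spiral 4 of 9 genes fell, 0 rose and 5 did not pass. No fall of the spiral kept its call after recentring on the secreted proteins or on the respiratory chain, each of which gave 0 lower and 1 higher (Acadm). As deposited its median, -0.65, lay nearer to 0 than that of the shuttle, -1.07, a difference that was not tested. The first step is taken by acyl-CoA dehydrogenases that differ in the chain length they prefer. Acadvl, for very long chains, had implied means of 12801 in WT and 7036 in 4N and a log2 fold change at -0.86 (SE 0.29, adjusted p = 0.021) per the authors' deposited table. Its exons, taken over all annotated transcripts, overlap those of Dvl2 on the opposite strand over 42.9% of their length in GENCODE M21. Of the 100-base windows of the main Acadvl transcript, 8.26% also occur in Dvl2. Whether the counting used strand is not given in the sources used here, so the value of Acadvl is uncertain. Acadl, for long chains, went from 27317 to 16791 by its implied means, with -0.70 (SE 0.20, adjusted p = 0.0046) per the authors' deposited table. Acadm, for medium chains, stood on the other side of 0. Its implied means were 25489 in WT and 32885 in 4N, and the authors' deposited table gave 0.37 (SE 0.21, adjusted p = 0.27). The 95% interval of Acadm, -0.05 to 0.78, lay above those of Acadl (-1.09 to -0.31) and Acadvl (-1.43 to -0.30). Recentring on the secreted proteins gave Acadm 0.92 (adjusted p = 1.2e-04) and recentring on the respiratory chain 0.63 (adjusted p = 0.018), both past the threshold, whereas Acadl and Acadvl lost their calls under both. Acads, for short chains, had implied means of 8799 and 5530 and -0.67 (SE 0.27, adjusted p = 0.070) per the authors' deposited table.

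Values of the later steps of the spiral stayed within 2-fold. Hadha and Hadhb encode the 2 subunits of the trifunctional protein, which takes long chains through hydration, oxidation and thiolysis. Hadhb fell from 28333 to 16484 normalized counts by its implied means, -0.78 (SE 0.21, adjusted p = 0.0033) per the authors' deposited table. Hadha stood at 38909 and 28389 and at -0.45 (SE 0.21, adjusted p = 0.14) per the authors' deposited table. The intervals of the 2 subunits overlap widely (-1.20 to -0.36 and -0.87 to -0.04). Of the Hadhb transcript, 52.8% of 100-base windows also occur in the transcript of Gm13910, a GENCODE entry that is not among the genes of the table, which makes the Hadhb count uncertain. Hadh, the dehydrogenase of shorter chains, fell from 39693 to 25371 by its implied means, -0.65 (SE 0.21, adjusted p = 0.015) per the authors' deposited table. Hadhb lost its call after recentring on the secreted proteins (adjusted p = 0.46) and on the respiratory chain (adjusted p = 0.074), and so did Hadh (adjusted p = 0.79 and 0.20). The hydratase Echs1 (-0.37, SE 0.19, adjusted p = 0.18) and the thiolase Acaa2 (-0.11, SE 0.21, adjusted p = 0.82) did not pass per the authors' deposited table. Acaa2, whose level per kilobase was the highest of the spiral, had implied means of 54895 and 50955 and an interval of -0.51 to 0.30.

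Enzymes that prepare unsaturated chains and the carriers that take electrons from the spiral fell in 4 of 6 genes, and in 1 of 6 (Etfdh) after recentring on the secreted proteins, where Decr1 (adjusted p = 0.23), Eci2 (adjusted p = 0.088) and Etfa (adjusted p = 0.89) lost their calls. Recentring on the respiratory chain left 3 of 6 lower, without Etfa. Decr1, the dienoyl-CoA reductase, had implied means of 14845 in WT and 8094 in 4N and -0.88 (SE 0.20, adjusted p = 3.2e-04) per the authors' deposited table. Eci2, an isomerase of mitochondria and peroxisomes, went from 6071 to 3096, -0.97 (SE 0.20, adjusted p = 1.7e-05) per the authors' deposited table. Eci1, the mitochondrial isomerase, stood at 7085 and 5642 and did not pass (-0.33 with an SE of 0.25 per the authors' deposited table). Among the carriers, Etfdh, which hands the electrons to ubiquinone, had the lowest value and fell from 19192 to 8286 by its implied means. The authors' deposited table gave Etfdh -1.21 (SE 0.21, adjusted p = 3.7e-07), the one fall of at least 2-fold among the 15 genes of the spiral, the auxiliary enzymes and electron transfer. Etfa, the alpha subunit of the soluble carrier, went from 23654 to 16597, -0.51 (SE 0.18, adjusted p = 0.039) per the authors' deposited table. Its partner Etfb was listed at 1033 and 655 with an SE of 0.40 and -0.66 (adjusted p = 0.30) per the authors' deposited table. Etfb had 903 normalized counts per kilobase against 13951 for Etfa. Of the Etfb transcript, 65.2% of 100-base windows are shared with Gm45233, a gene on the same strand that is not among the genes of the table, so the Etfb level is uncertain.

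Peroxisomal genes fell in 5 of 7 cases, with a median of -1.11, and their summed implied means went from 136815 normalized counts in WT to 40335 in 4N, 29.5% of WT. Ehhadh, the L-bifunctional enzyme and a classical PPAR alpha target, had implied means of 19665 and 5775. Its fold change on the log2 scale was -1.77 (SE 0.22, adjusted p = 1.0e-13) per the authors' deposited table. Hsd17b4, the D-bifunctional enzyme that also serves bile acid side chains, went from 15470 to 7179, -1.11 (SE 0.19, adjusted p = 2.5e-07) per the authors' deposited table. The 95% interval of Ehhadh was -2.20 to -1.34 and that of Hsd17b4 -1.48 to -0.73, so they overlap. A pair of thiolase copies closes the peroxisomal cycle. Acaa1b fell from 14776 to 2362 by its implied means, -2.65 (SE 0.33, adjusted p = 7.3e-14) per the authors' deposited table, the lowest value of the 38 genes. Acaa1a fell from 12063 to 5823, -1.05 (SE 0.29, adjusted p = 0.0030) per the authors' deposited table. As a share of WT the 95% intervals were 10.2 to 25.0% for Acaa1b and 32.7 to 71.3% for Acaa1a, which do not overlap, and the difference itself was not tested. Stretches of both copies are identical, 21.7% of the 100-base windows of Acaa1a and 22.6% of those of Acaa1b, so reads from these stretches could be counted for either. After recentring on the secreted proteins Acaa1a lost its call (adjusted p = 0.18).

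Crot, the carnitine octanoyltransferase through which shortened chains leave the peroxisome, had implied means of 66805 normalized counts in WT and 12180 in 4N. It fell by 2.46 on the log2 scale (SE 0.25, adjusted p = 2.6e-21) per the authors' deposited table, the smallest adjusted p of the 38 genes. Crat, the carnitine acetyltransferase that acts on the shortest chains, stood at 7229 and 6219 and at -0.22 (SE 0.20, adjusted p = 0.57) per the authors' deposited table. The interval of Crat, -0.61 to 0.18, lay wholly above that of Crot, -2.94 to -1.97, a difference that was not tested. Pex11a, a peroxisome division factor induced by PPAR alpha agonists, had implied means of 807 and 796, and -0.02 (SE 0.27) per the authors' deposited table, with an interval of -0.54 to 0.50. With the secreted proteins as centre the values of Crat and Pex11a were 0.34 and 0.53, still without a call, and with the respiratory chain as centre 0.05 and 0.25.

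**Figure D3:**
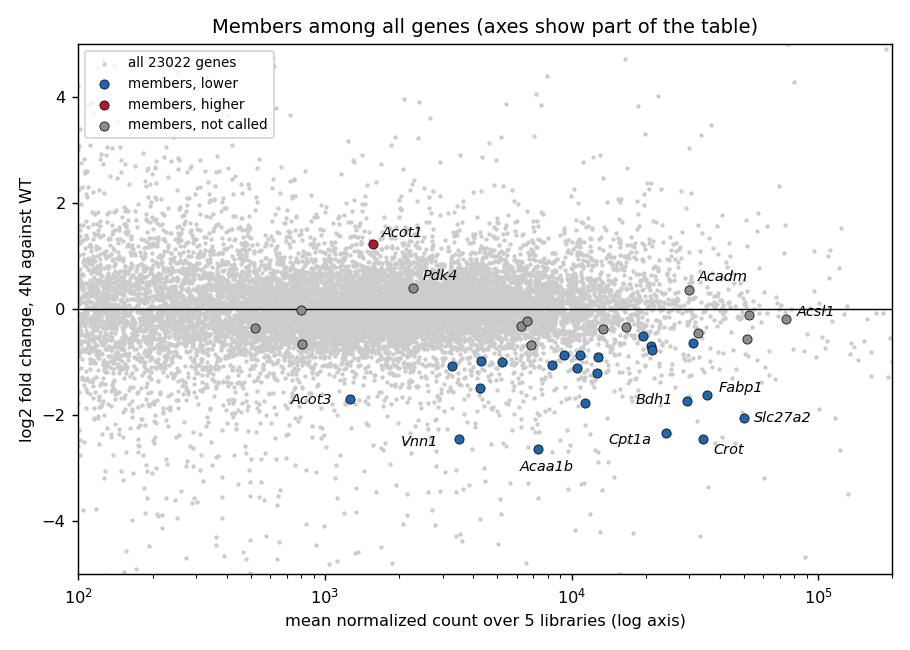
Log2 fold change (y axis) against the mean normalized count over 5 libraries (x axis, log) for all genes in grey and for the 38 genes in colour, with part of the table beyond the axes. The genes that fell lie at means from 1268 (Acot3) to 49800 (Slc27a2), and Acot1 at 1561 is the one above 0 past the threshold.

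Both ketone body genes of the set lay below 0, and 1 of them fell. Bdh1, which reduces acetoacetate to 3-hydroxybutyrate, had implied means of 50395 normalized counts in WT and 15192 in 4N, and fell by 1.73 on the log2 scale (SE 0.20, adjusted p = 1.9e-16) per the authors' deposited table. Acat1, the mitochondrial thiolase that joins 2 acetyl groups, stood at 63913 and 43459 and did not pass (-0.56, SE 0.27, adjusted p = 0.17, per the authors' deposited table). Of 7 other ketone body genes analysed here 1 fell and 2 rose (1 and 4 with the secreted proteins as centre, 1 and 3 with the respiratory chain). Among all genes 7.94% rose as deposited, 28.1% with the secreted proteins as centre and 14.4% with the respiratory chain. The carrier Slc16a7 fell by 1.39 (SE 0.28), whereas the carrier Slc16a1 (0.68, SE 0.22) and the cytosolic thiolase Acat2 of sterol synthesis (0.81, SE 0.20) rose per the authors' deposited table.

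Acyl-CoA thioesterases, which release free fatty acid from CoA, went in both directions. Acot1, the cytosolic enzyme, was the one gene of the 38 that rose, with implied means of 869 normalized counts in WT and 2022 in 4N. The authors' deposited table gave Acot1 1.22 (SE 0.24, adjusted p = 9.0e-06). Acot2, its mitochondrial near-copy, stood at 598 and 466 and at -0.36 (SE 0.29, adjusted p = 0.48) per the authors' deposited table. Both peroxisomal thioesterases among the 38 fell. In the list of further peroxisomal genes Acot8 was not called (0.02, SE 0.36) and Acot12 fell (-1.63, SE 0.24), per the authors' deposited table. The falls among the 38 were Acot3 from 2167 to 669, -1.70 (SE 0.25, adjusted p = 1.5e-09), and Acot4 from 6935 to 2461, -1.49 (SE 0.20, adjusted p = 2.0e-11), per the authors' deposited table. The interval of Acot1 (0.75 to 1.69) overlaps none of the other 3, of which the highest ended at 0.21 (Acot2), although no difference was tested. Of the Acot1 transcript, 16.5% of the 100-base windows also occur in Acot2 and 4.79% in the antisense RNA 4732463B04Rik, so its count may hold reads of both. Acot3 shares 9.90% of its windows with Gm49366 on the same strand and 6.42% with that antisense RNA, and Acot4 shares 8.83% with the latter, so these values are uncertain too. Under each of the 3 recentrings Acot1 stayed above 0 and called, and it lost the call when tested for more than 1.5-fold (adjusted p = 0.13). The t reference, under which 0 of all 23022 genes passed, ended the call of Acot1 too (adjusted p = 0.39).

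The remaining 3 genes stand around the pathway. Vnn1, the pantetheinase that recycles a CoA precursor and is strongly induced by PPAR alpha, had implied means of 6830 in WT and 1252 in 4N, or 18.3% of WT. It fell by 2.45 on the log2 scale (SE 0.29, adjusted p = 5.3e-15) per the authors' deposited table. Creb3l3, a liver transcription factor that acts with PPAR alpha in fasting, went from 17803 to 9544, -0.90 (SE 0.26, adjusted p = 0.0059) per the authors' deposited table, and lost the call after recentring on the secreted proteins (adjusted p = 0.33) or the respiratory chain (adjusted p = 0.069). Pdk4, the kinase that shuts pyruvate dehydrogenase when fat is burned, lay above 0, with implied means of 1911 and 2526. The authors' deposited table gave Pdk4 0.40 (SE 0.25, adjusted p = 0.31), and recentring on the secreted proteins (0.96, adjusted p = 7.8e-04) or the respiratory chain (0.67, adjusted p = 0.037) called it higher. Vnn1 and Pdk4, both known as PPAR alpha targets, thus had intervals that do not overlap, -3.02 to -1.88 and -0.08 to 0.89.

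Other genes of the pathway were read from lists chosen by function. Their counts stand beside the shares of all genes, 7.41% lower and 7.94% higher as deposited. These shares were 3.8% and 28.1% with the secreted proteins as centre, and 5.08% and 14.4% with the respiratory chain. Of 22 further peroxisomal genes 13 fell and 1 rose, with a median of -1.07. The secreted proteins as centre gave 10 lower and 4 higher, and the respiratory chain 12 and 1. The alpha-oxidation enzymes Phyh (-2.12, SE 0.21) and Hacl1 (-2.20, SE 0.25) and the sterol carrier and thiolase Scp2 (-1.94, SE 0.19) had the smallest adjusted p-values of the list per the authors' deposited table, 4.4e-21, 4.0e-16 and 5.8e-23. The one that rose, Pmvk (1.51, SE 0.37, per the authors' deposited table), is an enzyme of sterol synthesis. Of 14 peroxins, which build the organelle, 4 fell and 1 rose (median -0.39). After recentring on the secreted proteins 1 was lower and 1 higher (median 0.16), and after recentring on the respiratory chain 3 and 1. As deposited, Pex16 (-1.37, SE 0.32), Pex11g (-1.21, SE 0.28) and Pex7 (-1.06, SE 0.24) fell and Pex26 rose (1.01, SE 0.29), per the authors' deposited table.

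Of 23 other mitochondrial oxidation genes 7 fell and 0 rose (median -0.44). Recentring on the secreted proteins gave 2 lower and 5 higher (median 0.11), and on the respiratory chain 6 and 2. The medium-chain synthetases Acsm5 (-3.60, SE 0.36) and Acsm3 (-1.48, SE 0.22) and the hydratase-like Echdc2 (-1.30, SE 0.31) led by adjusted p per the authors' deposited table. Of 19 other activation and binding genes 3 fell and 2 rose, with a median of 0.05 (2 and 6 with the secreted proteins as centre, 2 and 4 with the respiratory chain). Of all genes 7.41% fell and 7.94% rose as deposited. The shares were 3.8% and 28.1% with the secreted proteins as centre, and 5.08% and 14.4% with the respiratory chain. The rises of these 19 genes, as deposited and with the secreted proteins as centre, were thus near the share of all genes. Fabp2, a second fatty acid-binding protein (-3.05, SE 0.32), Slc27a5, the bile acid and very long chain synthetase (-2.32, SE 0.33), and Acbd5, a peroxisomal acyl-CoA-binding protein (-0.80, SE 0.25), fell per the authors' deposited table. Acss2, which activates acetate for lipid synthesis (2.04, SE 0.28), and the synthetase Acsl3 (0.84, SE 0.22) rose per the authors' deposited table.

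Of 21 regulators 1 fell, 4 rose and 16 did not pass, with a median of 0.15. Of all genes 7.41% fell and 7.94% rose. With the secreted proteins as centre 0 were lower and 12 higher, where the shift made 28.1% of all genes higher. With the respiratory chain the counts were 0 and 8, where 14.4% of all genes were higher. A difference from the enzymes was not tested. Ppara itself had implied means of 9152 normalized counts in WT and 6845 in 4N and did not pass (-0.42, SE 0.28, adjusted p = 0.36, per the authors' deposited table). The coactivator Ppargc1a fell (-0.81, SE 0.28, adjusted p = 0.033) per the authors' deposited table, and had no call after recentring on the secreted proteins or the respiratory chain. Acacb, which makes the malonyl-CoA that blocks Cpt1a, rose from 675 to 2946 by its implied means, 2.13 (SE 0.28, adjusted p = 1.2e-12) per the authors' deposited table. Ppard (0.80, SE 0.26) and Lpin2 (0.66, SE 0.18) rose as well per the authors' deposited table.

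Other genes listed as PPAR alpha targets, a role not tested here, went both ways, with 8 of 21 lower and 4 higher (median -0.39). These counts became 4 and 5 with the secreted proteins as centre (median 0.17), and with the respiratory chain 6 and 4. Of all genes 7.41% fell and 7.94% rose as deposited. The shares became 3.8% and 28.1% with the secreted proteins as centre, and 5.08% and 14.4% with the respiratory chain. Fgf21, a fasting hormone, had an implied WT mean of 231 normalized counts and sat where genes with no reads in the 4N libraries sit, so no fold is given. Pank1, which opens CoA synthesis (-1.68, SE 0.23), and the lipid droplet gene Cidec (-3.38, SE 0.64) fell per the authors' deposited table. Pdk1, a sister kinase of Pdk4 (1.27, SE 0.20), the mitochondrial carrier Ucp2 (1.24, SE 0.25) and the lipase inhibitor Hilpda (1.12, SE 0.29) rose per the authors' deposited table.

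Lists of mitochondrial genes outside fatty acid oxidation had medians nearer to 0 than the 38 genes (-0.82), although single genes such as Sucla2 lay lower than that. The 38 genes also hold peroxisomal and cytosolic ones. Nearer to these lists were the mitochondrial spiral alone, with a median of -0.65, and the other mitochondrial oxidation genes, with -0.44. Of 26 nuclear-encoded respiratory chain subunits 3 fell and 0 rose, with a median of -0.27 and summed implied means at 89.9% of WT. Of all genes 7.41% fell, and 10.1% of those whose mean reached 500, as that of each subunit does. The falls among the subunits were thus near that share. Cox6c (-0.66, SE 0.21), Cox7a2 (-0.60, SE 0.20) and Sdhb (-0.50, SE 0.18) were the 3 that fell, per the authors' deposited table. Of 12 tricarboxylic acid cycle genes 3 fell and 0 rose, with a median of -0.34 and sums at 81.4% of WT. Sucla2 (-1.06, SE 0.22), Suclg2 (-0.76, SE 0.22) and Fh1 (-0.65, SE 0.24) fell per the authors' deposited table. The medians of both lists turned positive after recentring on the secreted proteins (0.29 and 0.21), while that of the 38 genes stayed below 0. By that centre the median of the mitochondrial spiral was -0.09 and that of the other mitochondrial oxidation genes 0.11. No fall of the respiratory chain or the cycle then kept its call. There 4 respiratory chain and 4 cycle genes were called higher, where 28.1% of all genes were. With the respiratory chain as centre 1 cycle gene was lower and 3 were higher, where 14.4% of all genes were higher. Whether the 38 genes differ from these lists was not tested.

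**Figure D4:**
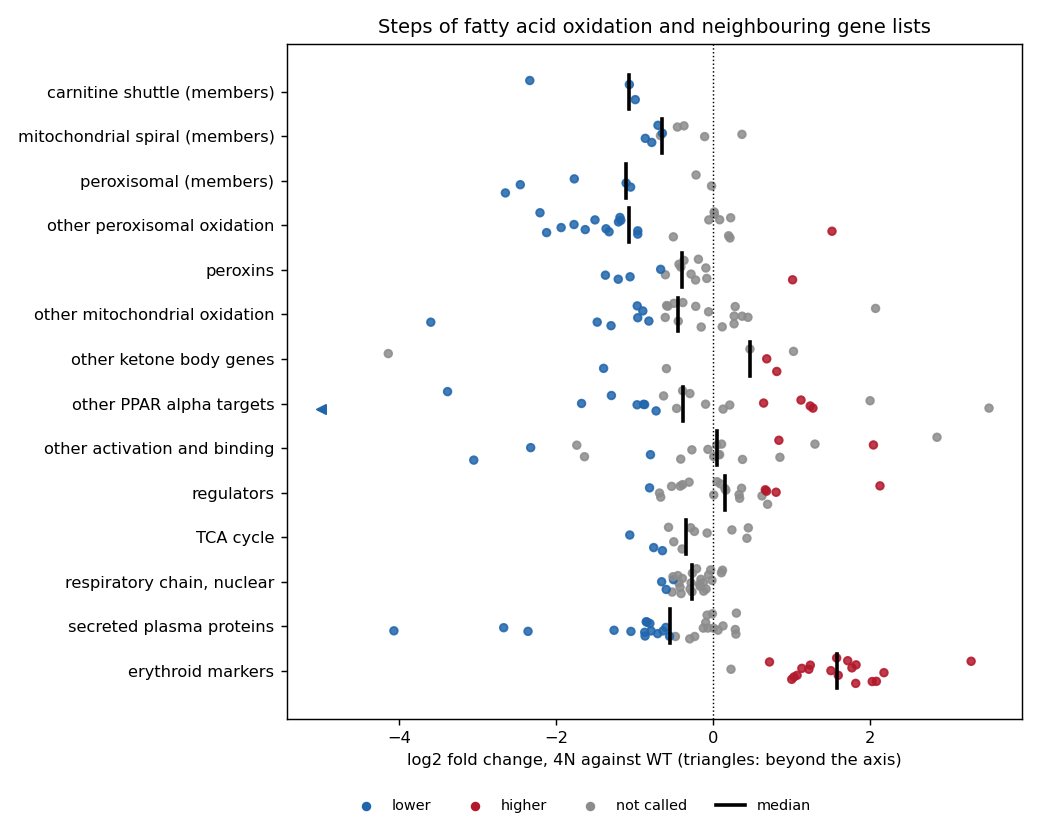
Log2 fold change of each gene (x axis, 1 point a gene, vertical position within a row arbitrary) in 3 steps of the pathway and in neighbouring lists, with bars for medians and colour for the call. Medians run from -1.11 (peroxisomal) and -1.07 (carnitine shuttle) through -0.27 (respiratory chain) to 1.57 (erythroid markers), and Fgf21 lies beyond the axis.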

How the data were processed

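Poly(A)-selected RNA of 5 livers was sequenced (3 4N, 2 WT), per the labels' protocols, and reads were placed on GRCm39, per the submitters' processing notes. For aligner, counting tool and strand setting the answer is: not given in the sources used here. Deposited was 1 table comparing the groups. Its signal column is a mean normalized count across the libraries, per the file headers. The log2 fold changes and their SEs were deposited on the log2 scale. The Wald statistic is a deposited score, equal to the fold change divided by its SE. The p-values and adjusted p-values are the authors', with column names as DESeq2 writes them, per the file headers. On recomputation they were the 2-sided normal tail of that score and its Benjamini-Hochberg adjustment across 23022 genes. Depth per library is unknown, and the summed means came to 78112300.

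The table does not name its numerator. Genes without reads in one group lie at a fixed distance from their mean, on the log2 scale, that grows when the other group has fewer libraries. It was 3.15 for 606 positive and 3.81 for 247 negative genes, so positive values mean higher in the 3 4N libraries. This check and the call rules were tested on simulated data.

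Implied group means solve the overall mean over 3 and 2 libraries with the fold change as their ratio, and ignore unequal weights. Intervals are 95% from the SE. Shared 100-base windows, transcript lengths and exon overlaps come from GENCODE M21, an annotation of GRCm38, while the reads were placed on GRCm39. The overlaps use its exon positions, of which none are printed. The windows stand in for a planned comparison of protein identity. Mlycd is counted in both the mitochondrial and the peroxisomal list of other genes. All 38 genes have a mean of at least 50. The members and lists were chosen with earlier results of these data known. Named genes are the 38, and in each other list up to 3 called genes per direction by adjusted p (the 2 most abundant if none), plus Ppara. Acot8 and Acot12 were named outside this rule, beside the other thioesterases. Some genes of the other lists are not reported here, and their values enter no count or median of those lists. Scripts ran in Python 3.11.15 (scipy 1.17.1, pandas 2.3.3, numpy 2.4.6; figures with matplotlib 3.10.9).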

Additional observations from a re-analysis of the deposited data

How the results depend on the processing

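Counts of 23 lower and 1 higher among the 38 genes were 20 and 1 at an adjusted p under 0.01, 23 and 1 among genes whose mean reached 50, and 24 and 1 with the genes above 10000 counts as centre. A test against a 1.5-fold change gave 10 lower and 0 higher (15 and 1 at an unadjusted p under 0.05), where 2.55% of all genes fell. Referred to a t distribution (3 degrees of freedom) and not the normal, the Wald test gave 0 lower and 0 higher (20 and 1 at an unadjusted p under 0.05), as it gave 0 calls among all 23022 genes, and the adjusted p-values of the 24 called genes then lay between 0.37 and 0.49. Recentring on the secreted plasma proteins gave 13 lower and 3 higher with a median of -0.27, and on the respiratory chain 17 lower and 3 higher with a median of -0.56. No called gene of the 38 changed sign other than Etfa, at 0.043 with the secreted proteins as centre. Values without a call that changed sign there were Acsl1 0.36, Acsl5 0.22, Hadha 0.10, Echs1 0.18, Acaa2 0.45, Eci1 0.23, Crat 0.34, Pex11a 0.53 and Acot2 0.20, and with the respiratory chain as centre Acsl1 0.071, Acaa2 0.16, Crat 0.049 and Pex11a 0.25. The shift of all values by the new centre sets these changes. Leaving out single libraries was not run, since it needs values of each. No paired analysis was possible because the groups share no replicate numbers. With 5 libraries the SE, at a median of 0.22 for the 38 genes, limits what can be seen.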

Other observations

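Antisense and overlapping genes of the set were listed too, chosen after their values were seen. Per the authors' deposited table the antisense RNA 4732463B04Rik, which overlaps Acot4 on the opposite strand over 9.21% of its exons, had a mean of 485 normalized counts and a log2 fold change at -1.90 (SE 0.33, adjusted p = 4.4e-07), beside -1.49 for Acot4 and -1.70 for Acot3. Dlec1, which overlaps 11.4% of the exons of Acaa1b on the opposite strand, had a mean of 37.1 and a log2 fold change at -2.44 (SE 0.78, adjusted p = 0.015), beside -2.65 for Acaa1b, per the authors' deposited table. Dvl2, on the strand opposite Acadvl, rose (0.91, SE 0.24, adjusted p = 0.0020) where Acadvl fell (-0.86), per the authors' deposited table. The antisense RNA Gm15743, which overlaps 13.7% of the exons of Bdh1, had a mean of 50.1 and did not pass (-2.24, SE 0.88, per the authors' deposited table). Gm26697, on the strand opposite Slc27a2 over 11.2% of its exons, is not among the genes of the table. Without a stated strand setting, reads of such partners cannot be told apart.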
